A study of Homo sapiens with 8 samples.

Results

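The LSM genes encode small proteins of the Sm-like fold that close into rings around the ends or internal sites of RNA. The 10 genes described here, LSM1 to LSM8, LSM10 and LSM11, were chosen by gene symbol from the subunits of these rings. All 10 were found among the 59414 genes of the count table. They were also found among the 11969 genes of the A-to-I table of the sort and in both knockdown tables, which list 10643 genes (A-to-I) and 10833 genes (C-to-U). Of the 11777 genes of the C-to-U table of the sort, 9 were members, and LSM7 was not analysed there.

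LSM2 to LSM7 are shared by the pair of heteromeric LSM rings. With LSM1 they form the cytoplasmic ring that binds the 3′ end of deadenylated mRNAs, works with PATL1 and promotes decapping, and that gathers in P-bodies. With LSM8 in place of LSM1 they form the nuclear ring that binds the 3′ end of U6 snRNA, a core RNA of the spliceosome. LSM10 and LSM11 replace the proteins of SNRPD1 and SNRPD2 in the Sm ring of the U7 snRNP, the particle that directs 3′ end processing of replication-dependent histone pre-mRNAs. The values below are of the mRNAs that encode these proteins, not of the proteins or of the RNAs they bind.

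The libraries came from HEK293T cells, an established line from human embryonic kidney, labelled PB-TRIBE-STAMP in every group. These cells carry RNA editors directed to P-bodies, cytoplasmic granules of mRNA with decay and repression proteins. TRIBE marks RNA by adenosine-to-inosine (A-to-I) changes and STAMP by cytidine-to-uridine (C-to-U) changes. The protein each editor is joined to is not given in the labels, and no library without the editors was used here. The groups were sorted P-bodies (50 ng of input RNA), cytosol (100 ng), cells given an siRNA against EDC4 (siEDC4, 500 ng of total RNA) and cells given a control siRNA (siNC, 500 ng), with 2 libraries each. Fraction and input amount went together in the sort, so they cannot be told apart. Whether the libraries of a group were separate cultures is not in the labels. P-values thus measure no more than the spread between these libraries, which may be technical.

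Gene counts in the sort summed to between 21186963 and 23716926 per library. The editing tables held between 12048147 and 15947999 reads per library in the sort and between 5697417 and 6294767 in the knockdown. The sorted P-body libraries differed from each other more than the cytosol libraries did (chi-square per degree of freedom 22.5 and 3.00). Between the siNC libraries, reads per gene differed little beyond sampling noise (1.02 per degree of freedom), so these reads were summed and counted as 1 sample in the tests. All 6 HEK293T lineage markers were above 1 CPM (counts scaled per library to a common total with TMM) in every sort library. Of 11 blood, fibroblast and hepatocyte markers, 2 were above 1 CPM in all 4 libraries and CD3E and HBB were at 0. The 2 were the fibroblast markers COL1A1 and COL3A1. COL1A1 was at a mean of 10.1 CPM in sorted P-bodies, against 20.1 in cytosol, and COL3A1 at 5.67, against 5.42. That list summed to between 15.5 and 18.5 CPM in sorted P-bodies and between 26.7 and 28.1 CPM in cytosol, and its part in the results was not tested.

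The sort asked which mRNAs are richer in P-bodies than in the cytosol. The mRNA of LSM8, the subunit of the nuclear ring, was about doubled in sorted P-bodies, and so was that of LSM11. The mRNAs of 4 of the 6 shared subunits and of LSM10 fell. LSM1, the subunit of the cytoplasmic decay ring, was slightly lower and did not pass the test. In all, 2 of 10 members were higher and 5 of 10 were lower at an adjusted p under 0.05 (edgeR). Over the 18745 genes tested 57.8% changed, 28.8% to higher and 29.0% to lower. With library-size scaling 2 members were higher and 7 lower, beside 22.7% higher and 36.9% lower over all genes. That scaling moved the median of all genes by -0.20 in log2. The members' median log2 fold change was -0.46, against -0.03 over all genes tested. In these bulk libraries, fewer cells or particles that hold an mRNA and fewer copies in each cannot be told apart.

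**Figure D1:**
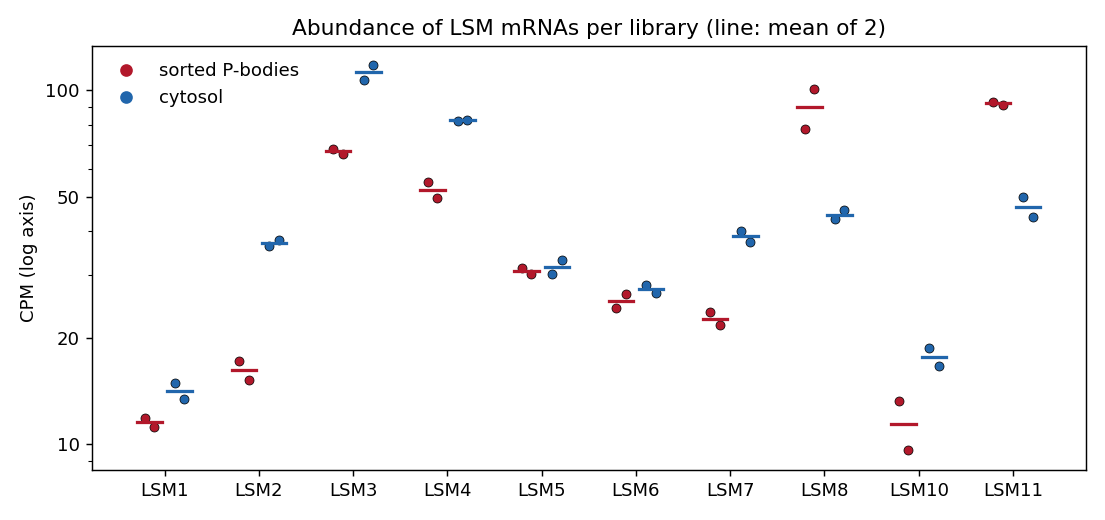
CPM on a log axis for each LSM mRNA in each sort library; points are libraries, lines are means of 2, sorted P-bodies stand left of cytosol. LSM8 and LSM11 are the genes whose sorted P-body libraries both lie above both cytosol libraries, and only the groups of LSM5 overlap.

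LSM1 (ENSG00000175324.10; chromosome 8, 38163335 to 38176730 in hg38, minus strand) is the subunit that sets the decay ring apart. Its mRNA was at 11.9 and 11.2 CPM in sorted P-bodies 1 and 2, and at 14.9 and 13.4 CPM in cytosol 1 and 2. Both sorted libraries lay below both cytosol libraries, by a narrow margin. The log2 fold change was -0.30 ± 0.13 (SE) with an adjusted p of 0.0683 (edgeR), and the same-numbered libraries gave -0.33 and -0.27. The call depends on the scaling and on 1 library. With library-size scaling the log2 fold change was -0.50 (adjusted p = 0.0143), and without sorted P-bodies 1 it was -0.35 (adjusted p = 0.0137, edgeR). The exons of LSM1 overlap those of BAG4 on the opposite strand by 198 bases and those of AC084024.3 by 438 bases. Over the sort libraries BAG4 had 5891 counts, LSM1 1177 and AC084024.3 2, and whether strand was used in counting is not given in the sources used here. Of 7 pseudogenes named for LSM1, LSM3 or LSM6 none had more than 6 counts in all.

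Of the shared subunits, LSM2, LSM3, LSM4 and LSM7 fell, and LSM5 and LSM6 did not pass the test. Their median log2 fold change was -0.70 over all 6. LSM2 (chromosome 6, 31797396 to 31806966, minus strand) was at 17.2 and 15.2 CPM in sorted P-bodies, against 36.3 and 37.7 CPM in cytosol. It gave the lowest log2 fold change of the 10 genes, -1.19 ± 0.11 (adjusted p = 1.9e-05, edgeR), and the groups lay far apart. LSM3 (chromosome 3, 14178817 to 14201122, plus strand), the shared subunit with the highest CPM, was at 68.3 and 66.3 CPM in sorted P-bodies, against 107.3 and 117.8 CPM in cytosol. Its log2 fold change was -0.74 ± 0.11 (adjusted p = 0.00023).

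LSM4 (chromosome 19, 18306236 to 18323112, minus strand) carries a long tail rich in arginine and glycine outside the Sm-like fold. Its mRNA was at 55.2 and 49.7 CPM in sorted P-bodies, against 81.9 and 82.7 CPM in cytosol (a log2 change of -0.65 ± 0.10, adjusted p = 0.00049, edgeR). LSM7 (chromosome 19, 2321520 to 2328611, minus strand) was at 23.6 and 21.7 CPM in sorted P-bodies, against 40.0 and 37.4 CPM in cytosol (-0.77 ± 0.11, adjusted p = 0.00018). For both genes every sorted library was below every cytosol library, in each batch of the labels. LSM5 (chromosome 7, 32485338 to 32495283, minus strand) was at 31.5 and 30.3 CPM in sorted P-bodies, against 30.3 and 33.2 CPM in cytosol, groups that overlap (-0.04 ± 0.10, adjusted p = 0.775). LSM6 (chromosome 4, 146175703 to 146200000, plus strand) was at 24.3 and 26.6 CPM in sorted P-bodies, against 28.3 and 26.8 CPM in cytosol. Its groups nearly touch, and its log2 fold change was -0.11 ± 0.11 (adjusted p = 0.392, edgeR), or -0.32 (adjusted p = 0.0364) with library-size scaling.

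LSM8 (ENSG00000128534.8; chromosome 7, 118184144 to 118204035, plus strand) went the other way from the shared subunits that fell. Its mRNA was at 77.7 and 101.2 CPM in sorted P-bodies, against 43.3 and 45.9 CPM in cytosol, means of 89.5 ± 16.6 and 44.6 ± 1.84 CPM (SD, n = 2 each). Both sorted libraries were above both cytosol libraries, and the sorted pair spread more widely. The log2 fold change was 1.00 ± 0.13 (adjusted p = 0.00016, edgeR), with 0.84 and 1.14 in the same-numbered libraries.

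The U7 pair split. LSM11 (chromosome 5, 157743712 to 157760709, plus strand), the larger protein, whose N-terminal part contacts the histone pre-mRNA cleavage machinery, rose. It was at 92.6 and 91.1 CPM in sorted P-bodies, against 49.9 and 43.9 CPM in cytosol (a log2 change of 0.97 ± 0.11, adjusted p = 4.9e-05, edgeR). LSM10 (chromosome 1, 36391238 to 36397908, minus strand), its partner in the U7 ring, was at 13.3 and 9.61 CPM in sorted P-bodies, against 18.7 and 16.6 CPM in cytosol. Its groups did not overlap either, in the opposite direction (-0.62 ± 0.16, adjusted p = 0.0076).

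Ratios within a library need no scaling between libraries. There were 6.53 and 9.06 LSM8 counts per LSM1 count in sorted P-bodies, against 2.90 and 3.41 in cytosol. The log2 ratio of LSM1 to LSM8 was lower in sorted P-bodies by 1.29 (difference -1.29; -1.17 and -1.41 in the same-numbered libraries; two-sided exact permutation p = 0.333, n = 2 each). That p is the smallest which 2 against 2 libraries allow, and it is above the threshold. Relative to the mean log2 count of the 6 shared subunits, LSM8 was higher in sorted P-bodies than in cytosol by 1.58, and LSM1 by 0.29 (p = 0.333 in both exact permutation tests). So the change of LSM1 between fractions, relative to the shared subunits, was small beside that of LSM8. LSM11 had 6.99 and 9.48 counts per LSM10 count in sorted P-bodies, against 2.67 and 2.64 in cytosol.

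**Figure D2:**
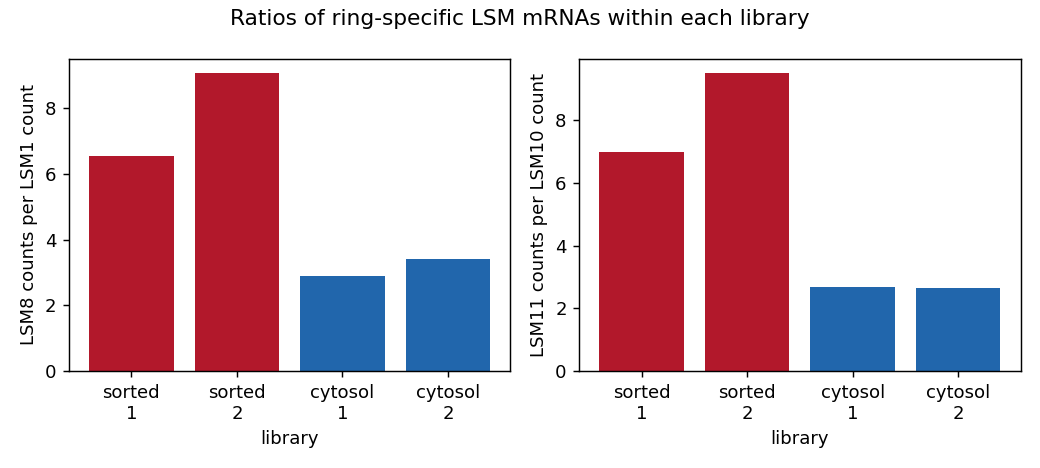
Bars from 0 give LSM8 counts per LSM1 count (left) and LSM11 counts per LSM10 count (right) in each sort library. In both panels each sorted P-body library stands above each cytosol library, 6.53 and 9.06 against 2.90 and 3.41 on the left.

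Levels of different genes were set side by side per kilobase of exon length (CPM per kb, with the exon length of the count table). In sorted P-bodies the order was LSM3 (20.03 CPM per kb), LSM4 (18.3), LSM2 (15.3), LSM11 (14.0), LSM7 (13.4), LSM10 (7.59), LSM1 (6.88), LSM5 (6.59), LSM6 (6.41) and LSM8 (5.17). LSM11 and LSM7 overlapped there, as did each neighbouring pair from LSM10 to LSM6. In cytosol the order was LSM2 (35.0), LSM3 (33.5), LSM4 (28.8), LSM7 (23.0), LSM10 (11.7), LSM1 (8.46), LSM11 (7.14), LSM6 (6.92), LSM5 (6.76) and LSM8 (2.58). LSM2 and LSM3 overlapped there, and so did LSM11 with LSM6 and LSM6 with LSM5. In both fractions the shared subunits LSM2, LSM3 and LSM4 were well above LSM1, while LSM5 and LSM6 were close to it.

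The rank of LSM8, like those of LSM7 and LSM3, rests on the length used. The merged exons of LSM8 cover 17309 bases, while its principal transcript in the GENCODE v29 annotation has 1305 bases. For LSM1 the merged exons cover 1676 bases and the principal transcript has 1147. The same counts, taken over the merged exons, were then divided by the principal transcript length. On that scale LSM8 was at 68.6 in sorted P-bodies, against 34.2 in cytosol. LSM1 was at 10.1 in sorted P-bodies, against 12.4 in cytosol. Counts and length then cover different sequence, so these are not levels of the principal transcript itself. The log2 ratio of the level of LSM8 to that of LSM1 was -0.41 in sorted P-bodies and -1.72 in cytosol on merged exons, and 2.77 in sorted P-bodies, against 1.47 in cytosol on principal transcripts. The order of these genes therefore turns with the length, whereas the change of each between fractions is not divided by a length. That change still rests on reads counted over the merged exons. How many LSM8 reads lie outside its principal transcript was not tested.

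Exon length and base composition moved with the abundance changes. The risen LSM8 and LSM11 have the longest exon models of the 10 (17309 and 6567 bases), and the most strongly lowered, LSM2, has the shortest (1059 bases). Spearman's rho between this merged exon length and log2 fold change was 0.81 over the 10 members and 0.22 over the 18745 genes tested. The value over the members rests on the exon models. By principal transcript LSM8 has 1305 bases, and LSM7 (529 bases) is shorter than LSM2 (876 bases). No rho is given for that length. Over GC content of the principal transcript, rho was -0.77 over the members and -0.58 over 13594 tested genes with a protein-coding transcript in GENCODE v29. These are descriptions across genes, which share the same 4 libraries. Of 5442 genes with exons at least as long as those of LSM11, 45.1% were higher and 22.4% lower, with a median log2 fold change of 0.26. Of 13303 shorter genes 22.2% were higher and 31.7% lower, with a median of -0.14. The part of length and composition in the members' changes was not tested.

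**Figure D3:**
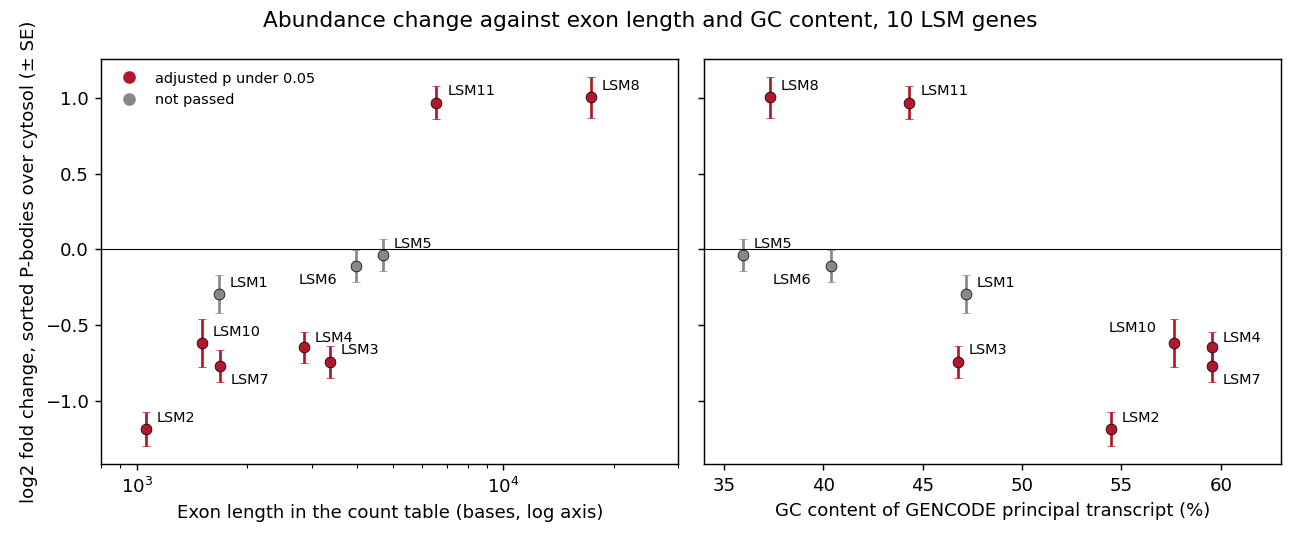
Log2 fold change of each LSM mRNA, sorted P-bodies over cytosol, against exon length in bases (left, log axis) and GC content of the principal transcript in % (right); bars are SE and red marks an adjusted p under 0.05. On merged exon length LSM8 and LSM11 stand at the long end with values near 1, and LSM2 at the short end with -1.19.

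Length of the 3′ untranslated region also varied widely among the members. It was 5445 bases in the principal transcript of LSM11 and 3003 bases in that of LSM3, against 163 bases in LSM7 and 349 bases in LSM1. LSM8 had 822 bases and LSM10 had 328 bases. LSM11, with the longest 3′ region of the members, rose, and LSM3, with the longest of the shared subunits, fell. The part of 3′ region length in the members' changes was not tested. The principal transcript of LSM3 in GENCODE v29, with 3815 bases, is longer than its exon model in the count table (3359 bases), so these annotations differ for LSM3.

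Editing was then compared between the fractions. The editing score is the share of a gene's reads that carry an edit, given in %, and the log2 odds ratio compares edited with unedited reads between groups. A-to-I scores of 9 of 10 members were higher in sorted P-bodies and none was lower (edgeR, adjusted p under 0.05), with LSM4 as the exception. Without sorted P-bodies 2 the count was 5, since LSM3 and LSM7 then had edits in 1 library and could not be tested and LSM6 and LSM10 did not pass. This count is read against a background in which 74.6% of 11303 genes changed, 73.5% to higher and 1.08% to lower. The median score over these genes was 7.19% and 7.41% in sorted P-bodies, against 2.90% and 2.77% in cytosol, a shift of 1.43 in log2 odds. With each library centred on its median score, LSM3, LSM7 and LSM8 were still higher, LSM4 was lower, and the other 6 members did not pass. After that centring 16.1% of all genes were higher and 13.1% lower. LSM3 and LSM7 had edits in sorted P-bodies only, so they entered the test through that group and could not come out lower. With or without centring, their calls are thus no support for the direction.

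LSM1 and LSM8 had A-to-I scores close to each other. LSM1 scored 5.75% and 5.26% in sorted P-bodies, against 0.308% and 1.03% in cytosol (17 of 307 and 4 of 616 reads edited; log2 odds ratio 3.09 ± 0.73, adjusted p = 0.0011, edgeR). LSM8 scored 5.75% and 5.67% in sorted P-bodies, against 0.237% and 1.183% in cytosol (127 of 2223 and 13 of 1774 reads; 3.01 ± 0.40, adjusted p = 3.8e-06). For both genes the sorted libraries lay well above the cytosol libraries, and all cytosol scores were below the cytosol medians. After centring, LSM8 kept its call (1.60 ± 0.43, adjusted p = 0.0080), and LSM1, at fewer reads, gave a like estimate without passing (1.73 ± 0.80, adjusted p = 0.107). The score of LSM1 minus that of LSM8 was -0.21 percentage points in sorted P-bodies and -0.04 in cytosol. The difference between fractions was -0.17 percentage points (two-sided exact permutation p = 0.667, n = 2 each), and without sorted P-bodies 2 it was 0.03.

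The shared subunits ranged more widely. LSM3 scored 6.24% and 4.75% in sorted P-bodies and was listed at 0 in both cytosol libraries (96 of 1715 and 0 of 3670 reads, which allows a share of up to 0.0817%). Its summed score in sorted P-bodies was 68.5-fold that cytosol limit, or 26.6-fold over the fold of the library medians (adjusted p = 1.5e-08, edgeR). The limit bounds the cytosol side only, and the score in sorted P-bodies is taken as measured. LSM7 scored 2.80% and 3.64% in sorted P-bodies and was also listed at 0 in cytosol (19 of 604 and 0 of 1349 reads, up to 0.222%). Its summed score in sorted P-bodies was 14.1-fold that limit (adjusted p = 2.8e-05, edgeR). The rule for calling a site edited is not given in the sources used here, and a filter on sites can also list a gene at 0.

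LSM2 scored 9.31% and 9.95% in sorted P-bodies, against 2.01% and 3.76% in cytosol (a log2 odds ratio of 1.84 ± 0.38, adjusted p = 0.00041, edgeR). LSM5 scored 7.0% and 7.82% in sorted P-bodies, against 2.71% and 2.90% in cytosol (1.46 ± 0.33, adjusted p = 0.00087). After centring these moved with the median gene, at 0.41 and 0.03. LSM6 had low scores throughout, 1.03% and 2.06% in sorted P-bodies, against 0.364% and 0.357% in cytosol. It rests on 11 edited reads in sorted P-bodies, against 4 in cytosol (2.02 ± 0.79, adjusted p = 0.0294), and did not pass without sorted P-bodies 2 (0.199), cytosol 1 (0.0616) or cytosol 2 (0.0685).

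LSM4 stood apart from the rest of the rings. It scored 6.84% and 7.83% in sorted P-bodies, against 7.10% and 5.44% in cytosol, groups that overlap (log2 odds ratio 0.23 ± 0.22, adjusted p = 0.356, edgeR). Its cytosol scores were the highest of the shared subunits and lay above the cytosol medians. Relative to the median shift it was lower (-1.20 ± 0.21, adjusted p = 0.0002), from 107 of 1475 reads in sorted P-bodies, against 187 of 2983 in cytosol.

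The U7 subunits carried the highest A-to-I scores of the sorted libraries among the members. LSM11 scored 18.0% and 19.5% in sorted P-bodies, against 6.92% and 6.58% in cytosol (1.66 ± 0.18, adjusted p = 3.6e-07, edgeR), and LSM10 11.01% and 14.1% in sorted P-bodies, against 6.75% and 7.34% in cytosol (0.88 ± 0.37, adjusted p = 0.0389). Both were above the library medians in the cytosol as well. The call of LSM10 was lost with the replicate block (adjusted p = 0.0552) and without sorted P-bodies 2 (0.146), cytosol 1 (0.133) or cytosol 2 (0.0732). After centring neither passed, at 0.23 for LSM11 and -0.54 for LSM10.

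**Figure D4:**
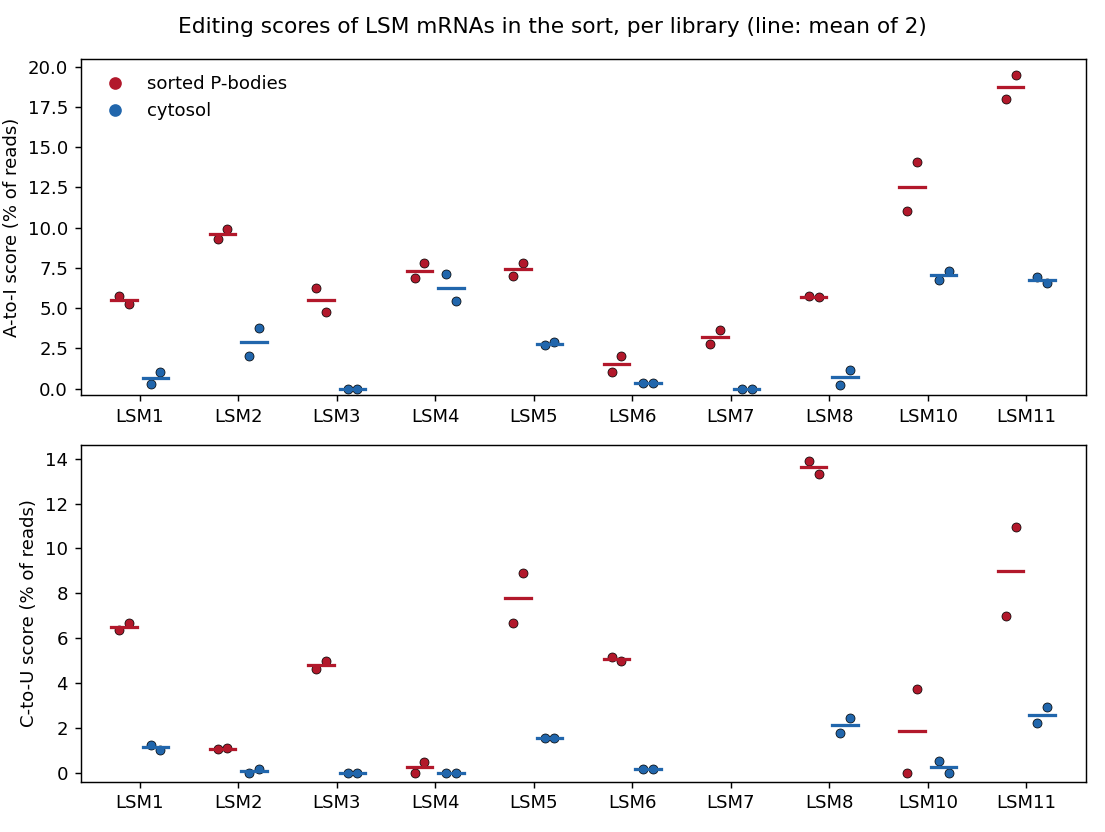
A-to-I (top) and C-to-U (bottom) editing scores in % of reads for each LSM mRNA in each sort library; points are libraries, lines are means of 2, and LSM7 has no C-to-U value. In the top panel LSM4 overlaps between fractions, and in the bottom panel LSM8 has the highest sorted P-body scores, 13.9% and 13.3%.

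C-to-U scores were higher in sorted P-bodies for 7 of the 8 members that could be tested, and none was lower. Over the 10613 genes tested 68.3% changed, 68.0% to higher and 0.292% to lower. The median scores were 2.76% and 3.13% in sorted P-bodies, against 0.633% and 0.595% in cytosol, a shift of 2.29 in log2 odds. LSM10 did not pass, LSM4 was edited in 1 library only and was not tested, and LSM7 was not analysed. After centring on the library medians LSM3 and LSM6 were still higher and no member was lower, against 11.3% higher and 4.56% lower over all genes. In the sort LSM3 had C-to-U edits in sorted P-bodies only. It entered the test through that group and could not come out lower, with or without centring.

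LSM1 and LSM8 differed more by this editor. LSM8 had the highest C-to-U scores of the members in sorted P-bodies, 13.9% and 13.3%, with 1.77% and 2.44% in cytosol (317 of 2329 and 38 of 1791 reads; odds ratio 2.86 ± 0.29 on the log2 scale, adjusted p = 5.6e-06, edgeR). LSM1 scored 6.36% and 6.67% in sorted P-bodies, against 1.24% and 1.03% in cytosol (20 of 308 and 7 of 614 reads; 2.55 ± 0.58, adjusted p = 0.0019). The score of LSM1 minus that of LSM8 was -7.11 percentage points in sorted P-bodies and -0.97 in cytosol. That is a difference of -6.14 points between fractions (two-sided exact permutation p = 0.333, the smallest possible, n = 2 each). On the odds scale, centred values were 0.57 for LSM8 (adjusted p = 0.228) and 0.31 for LSM1 (adjusted p = 0.775, edgeR), and the difference between them on that scale was not tested.

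Among the shared subunits, LSM3 was again listed at 0 in cytosol, with 4.61% and 4.96% in sorted P-bodies (82 of 1723 and 0 of 3667 reads, up to 0.0818%). Its summed score in sorted P-bodies was 58.2-fold that cytosol limit (adjusted p = 3.1e-06, edgeR), or 12.1-fold over the fold of the medians. In the knockdown's C-to-U table, made separately, LSM3 had 13 of 1383 reads edited in siNC cells (0.940%), above that limit. Those are whole cells and not cytosol. Here too a filter on sites can list a gene at 0, which was not tested, so the fold rests on the listed 0. LSM6, low by the other editor, scored 5.14% and 5.0% in sorted P-bodies, against 0.183% and 0.179% in cytosol (37 of 729 and 2 of 1104 reads; 4.71 ± 0.66, adjusted p = 5.4e-05). LSM6 also passed after centring (2.59 ± 0.81, adjusted p = 0.0491), close to the threshold. LSM5 scored 6.70% and 8.89% in sorted P-bodies and 1.53% in both cytosol libraries (2.42 ± 0.40, adjusted p = 0.0002).

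LSM2 and LSM4 had few C-to-U edits. LSM2 scored 1.06% and 1.09% in sorted P-bodies, against 0 and 0.145% in cytosol, from 5 and 1 edited reads (3.63 ± 1.27, adjusted p = 0.0234, edgeR). The call was lost without sorted P-bodies 1 (0.121), sorted P-bodies 2 (0.0943) or cytosol 1 (0.0714). LSM4 scored 0 and 0.492% in sorted P-bodies and 0 in both cytosol libraries, 3 edited reads of 1461 in sorted P-bodies, against 0 of 2974 in cytosol. In the knockdown's C-to-U table LSM4 had 27 edited reads of 1934 in siEDC4 cells, against 21 of 1953 in siNC cells. LSM11 scored 7.0% and 10.9% in sorted P-bodies, against 2.24% and 2.91% in cytosol (1.87 ± 0.34, adjusted p = 0.00035), and -0.41 after centring. LSM10 scored 0 and 3.73% in sorted P-bodies, against 0.5% and 0 in cytosol, groups that overlap (adjusted p = 0.184).

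Set side by side, LSM2, LSM3, LSM7 and LSM10 were lower in abundance and higher in A-to-I score in sorted P-bodies, and LSM8 and LSM11 were higher in both. The A-to-I scores of 73.5% of all genes were higher too, and after centring LSM3, LSM7 and LSM8 alone of these 6 were still higher. Of these, LSM3 and LSM7 were tested on edits in sorted P-bodies only and could not come out lower. The median A-to-I score over the 6 shared subunits was 6.54% and 6.29% in sorted P-bodies, against 1.19% and 1.63% in cytosol. LSM1 and LSM8 were slightly below it in both sorted libraries and below it in both cytosol libraries. The median C-to-U score over the 5 listed shared subunits was 4.61% and 4.96% in sorted P-bodies, against 0 and 0.145% in cytosol. LSM1 and LSM8 were above that median in all 4 libraries.

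The knockdown asked whether loss of EDC4, a scaffold of the decapping machinery, changes reads or editing. EDC4 itself had 245 and 186 reads in siEDC4 cells and 684 and 609 reads in siNC cells (log2 fold change -1.56 ± 0.14, adjusted p = 2.6e-25, edgeR). Of the LSM genes 0 of 10 changed in reads, and none had an unadjusted p under 0.05. Over 10642 genes tested 0.564% were called, 60 genes, and DESeq2 also called 0 of the members. On 4 libraries with the replicate block 521 genes and 0 members were called. The members' log2 fold changes lay between -0.12 (LSM5 and LSM8) and 0.09 (LSM10), with adjusted p from 0.965 to 0.998. Their 95% intervals together reached from -0.40 (LSM5) to 0.44 (LSM10).

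LSM1 was at 30.6 and 29.3 RPM (reads scaled like CPM) in siEDC4 cells and 27.6 and 31.5 in siNC cells, groups that overlap. LSM8 was at 86.0 and 78.3 RPM in siEDC4 cells and 88.8 and 89.5 in siNC cells, so its groups are separate by a small margin. LSM10 was at 29.4 and 31.4 RPM in siEDC4 cells and 30.5 and 26.5 in siNC cells, which overlap. The spread behind these tests came from the siEDC4 libraries alone, since the siNC libraries were counted as 1 sample.

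In the knockdown's editing tables no member passed. For A-to-I, 0 of the 7 members tested were called by edgeR, against 0% of 9157 genes. Edited reads of the siNC libraries differed by more than sampling noise (1.30 per degree of freedom for A-to-I and 1.31 for C-to-U), so they were summed on the ground of their reads alone; with all 4 libraries 0 members were called for either editor. LSM10 alone had an unadjusted p under 0.05 (0.0273), and 491 genes did over the whole table. With the replicate block on 4 libraries 26 genes and 0 members were called, and limma called 0 members. LSM10 scored 3.91% and 4.47% in siEDC4 cells and 1.05% and 0.658% in siNC cells, groups that do not overlap (log2 odds ratio 2.23 ± 0.79, adjusted p = 0.845, from 15 and 3 edited reads). LSM11 scored 7.14% and 4.15% in siEDC4 cells and 3.51% and 3.50% in siNC cells (0.73 ± 0.44, adjusted p = 0.845). The library medians were 1.41% and 1.48% in siEDC4 cells and 1.17% and 1.16% in siNC cells.

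LSM1 and LSM8 had few A-to-I edits in these cells. LSM1 had 1 edited read of 353 in siEDC4 cells and 5 of 353 in siNC cells, and LSM8 had 1 of 969 in siEDC4 cells and 6 of 1067 in siNC cells (adjusted p = 0.845 for both, edgeR). LSM3 was listed at 0 in all 4 libraries, 0 of 1333 reads in siEDC4 cells and 0 of 1380 in siNC cells, which allows up to 0.225% and 0.217%. These 0 values stand beside its listed 0 in the cytosol of the sort, in a table made separately. LSM6 and LSM7 had edits in 1 library each and were not tested.

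For C-to-U, 0 of 10 members were called, against 0% of 9646 genes (377 genes and 3 members at an unadjusted p under 0.05, edgeR). LSM10 scored 0.565% and 0 in siEDC4 cells and 1.58% and 5.26% in siNC cells (log2 odds ratio -3.34 ± 1.15, adjusted p = 0.996, edgeR). LSM6 scored 3.66% and 2.58% in siEDC4 cells and 1.08% and 0 in siNC cells (2.37 ± 0.95, adjusted p = 0.996, edgeR). LSM5 scored 1.21% and 0.896% in siEDC4 cells and 3.31% and 2.65% in siNC cells (-1.52 ± 0.61, adjusted p = 0.996, edgeR). LSM10 and LSM5 thus had the lower scores and LSM6 the higher scores in siEDC4 cells, each on 22 edited reads or fewer per group. With the replicate block on 4 libraries 4 genes of the table and 0 members were called. LSM3 had edits by this editor, 20 of 1337 reads in siEDC4 cells and 13 of 1383 in siNC cells. LSM1 scored 2.66% and 1.176% in siEDC4 cells and 1.16% and 2.21% in siNC cells, and LSM8 2.66% and 1.55% in siEDC4 cells and 1.79% and 1.75% in siNC cells, groups that overlap for both.

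**Figure D5:**
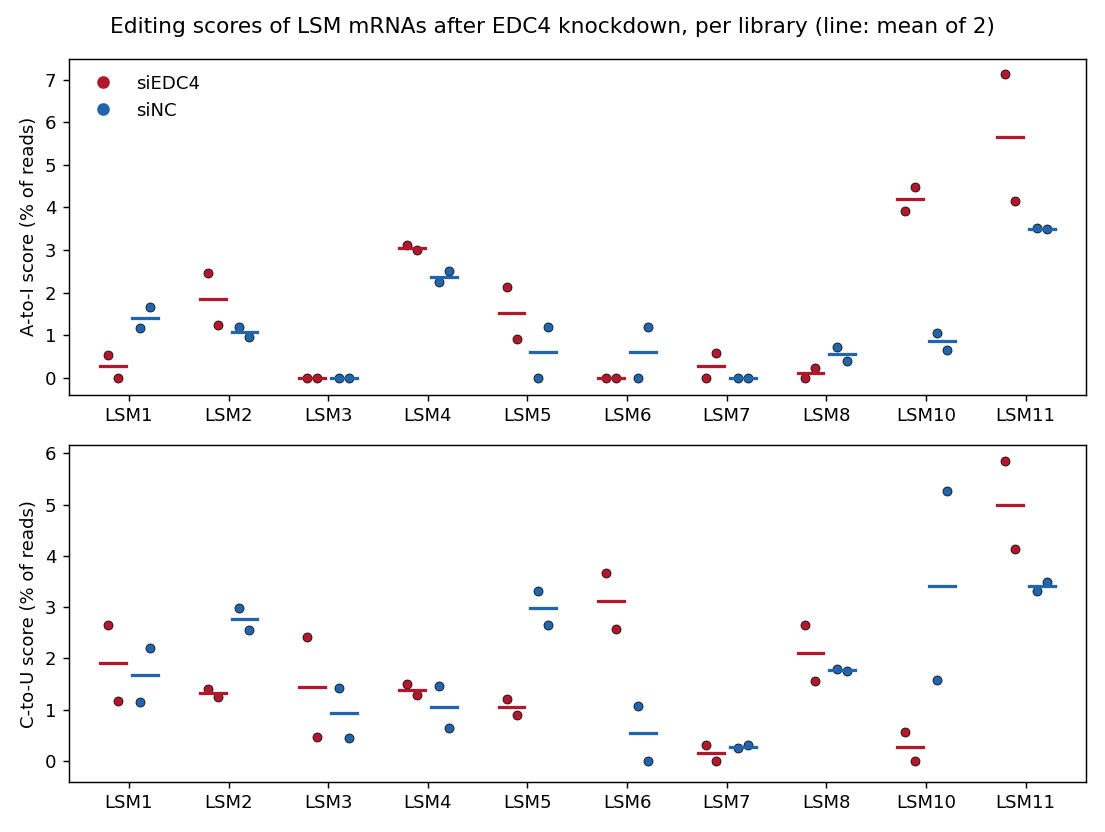
A-to-I (top) and C-to-U (bottom) editing scores in % of reads for each LSM mRNA in siEDC4 and siNC libraries; points are libraries and lines are means of 2. LSM10 separates in opposite directions in the panels, with 3.91% and 4.47% against 1.05% and 0.658% at the top, and no gene passed the adjusted threshold.

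The rings' partner genes were described by the same tests, for the sort. Their counts stand beside 28.8% of all genes higher and 29.0% lower in abundance, and 73.5% (A-to-I) and 68.0% (C-to-U) higher in editing score. Of 11 decapping partners of the LSM1 ring, 7 rose and 2 fell in sorted P-bodies, with a median log2 fold change of 0.38. The decapping enzyme DCP2 was at 349 ± 67.8 CPM in sorted P-bodies, against 96.2 ± 2.24 CPM in cytosol (SD, n = 2 each; log2 fold change 1.86 ± 0.14, adjusted p = 7.7e-06, edgeR). The 5′ exonuclease XRN1 rose by 2.21 ± 0.18 and the decapping activator DCP1A by 1.14 ± 0.12 (adjusted p = 9.8e-06 and 4.1e-05). A-to-I and C-to-U scores were each higher for 10 of the 11.

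The Sm ring, the core of the spliceosomal snRNPs other than U6, had no higher member. Of 7 tested of 8 genes, 6 were lower, with a median of -0.91. SNRPD3 was at 18.6 ± 0.0954 CPM in sorted P-bodies, against 42.5 ± 1.184 CPM in cytosol (-1.19 ± 0.10, adjusted p = 1.2e-05, edgeR), and SNRPG and SNRPD2 gave -0.92 ± 0.10 and -1.32 ± 0.15. Their A-to-I scores were higher for 6 of 7 tested and their C-to-U scores for 4 of 6.

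Partners of the nuclear ring in U6 snRNA maturation and the U4/U6.U5 tri-snRNP were mixed, with 8 of 21 higher and 10 of 21 lower (median -0.07). USB1, which trims the 3′ end of U6 snRNA, gave -1.37 ± 0.13, the cyclophilin PPIH -1.08 ± 0.10 and the tri-snRNP protein SART1 -0.97 ± 0.10 (adjusted p = 1.7e-05, 1.6e-05 and 3.3e-05, edgeR). A-to-I scores of this list were higher for 16 of 21 genes and lower for 1, and C-to-U scores were higher for 13 of 20 tested.

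Of 9 partners of LSM10 and LSM11 in histone pre-mRNA 3′ end processing, 5 were higher and 1 lower (median 0.70). ERI1, an exonuclease of histone mRNA ends, was at 82.1 ± 0.175 CPM in sorted P-bodies, against 27.2 ± 0.403 CPM in cytosol (1.60 ± 0.10, adjusted p = 3.6e-06, edgeR). CPSF2, a subunit of the cleavage complex, rose by 1.28 ± 0.11, and the scaffold SYMPK was lower at -1.06 ± 0.13. A-to-I scores were higher for 9 of 9 and C-to-U scores for 7 of 9. Of 13 genes of ring assembly (the SMN complex and the methylosome), 6 were higher and 3 lower (median 0.21), with GEMIN4 at 1.39 ± 0.11, GEMIN5 at 0.94 ± 0.11 and SMN1 at 0.83 ± 0.11. SMN1 has the near-identical copy SMN2, so its count is uncertain. A-to-I scores of these were higher for 10 of 13 and C-to-U scores for 9 of 13. None of the partner genes other than EDC4 was called in the knockdown's reads.

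The genes most like LSM1 and LSM8 were found by Euclidean distance over 12 values (log2 level per kb, A-to-I score and C-to-U score in the 4 sort libraries, each scaled to unit SD) among 11699 genes. Nearest to LSM1 were HNRNPLL (0.664), TPST1 (0.720) and EDA2R (0.817), against a median distance of 3.24. Nearest to LSM8 were IFT80 (1.14), STEAP2 (1.175) and EBAG9 (1.25), against a median of 4.74. The level values use the merged exon length, on which the level of LSM8 depends. Nearness over these values did not mean a like abundance change between fractions. The log2 fold changes of HNRNPLL, TPST1 and EDA2R were 0.30, -0.20 and -0.73, against -0.30 for LSM1. Those of IFT80, STEAP2 and EBAG9 were 1.39, 0.22 and 0.34, against 1.00 for LSM8. Neither LSM1 nor LSM8 appeared among the 3 genes listed for the other, a short list out of 11699.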

How the data were processed

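The 10 genes, the partner lists and the tests were chosen with earlier results of these data known. Per the submitters' processing notes the tools were FastQC 0.11.9, cutadapt 1.18, STAR 2.7.9a and featureCounts 2.0.1, with build hg38. Not given in the sources used here: annotation, strand setting, multi-mapped reads and the calling of edits. The authors deposited raw counts per gene for the sort and, for each editor and contrast, edited reads as counts, reads and a score per gene. The deposited reads were entered as estimated counts, because 3 broken lines of ANK2 per editing table hold values that are not whole; these lines were left out and all values used were whole. The deposited score is a fraction, which equalled edited reads over reads to within 5.0e-08, printed here as a percentage.

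The abundance fit used edgeR 4.0.16 under R 4.3.3 (quasi-likelihood, TMM, filterByExpr). The editing fit was the quasi-likelihood model of edited against unedited reads, with library effects and an edited-share effect of group, on genes edited in at least 2 libraries. P-values were Benjamini-Hochberg adjusted over all genes tested, at 0.05. SE restates the test. Bounds used a floor of 3 edited reads for a group listed at 0 and the score as measured for the other group. They cover counting error only, and on the side listed at 0 only: without molecular identifiers, reads may repeat a molecule. The 95% intervals of fold changes come from the edgeR SE. Centred fits used the log odds of each library's median score as offset. DESeq2 1.42.0 and limma 3.58.1 were alternatives. All 10 members were named; of each partner list the 3 genes with the smallest abundance p were named.

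Same-numbered libraries are paired by the labels' batch number. Their deviations correlated at 0.0356 in the sort (18745 genes) and -0.0352 in the knockdown (10643 genes), and the block was fitted as an alternative. Chi-square per degree of freedom was 3.46 between the siEDC4 libraries and 1.02 between the siNC libraries (edited reads 1.30 and 1.31 in the A-to-I and C-to-U tables). Principal transcripts, their lengths and GC content came from GENCODE v29, and gene coordinates and exon lengths from the count table.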

Additional observations from a re-analysis of the deposited data

How the results depend on the processing

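The count of members called in sort abundance was 7, and 7 to 8 when each library was left out in turn. With library-size scaling it was 9, and the genes called were 4257 higher and 6911 lower, against 5401 and 5440. With scores centred on library medians, the members called were 4 (A-to-I) and 2 (C-to-U), and the genes called 3307 and 1688, against 8433 and 7252. Leaving out each library gave 5 to 7 members for A-to-I (5 without sorted P-bodies 2) and 5 to 7 for C-to-U. Without either sorted library LSM3 (both editors) and LSM7 (A-to-I) had edits in 1 library and could not be tested. LSM4 (-1.20) and LSM10 (-0.54) for A-to-I, and LSM11 (-0.41) for C-to-U, turned negative by construction of the centring. The LSM1 to LSM8 ratio ranged from -1.53 to -1.05, and LSM1 minus LSM8 from -0.37 to 0.0343 points for A-to-I (0.0343 without sorted P-bodies 2; the cause was not tested) and from -6.58 to -5.69 for C-to-U. Merged-exon counts were also divided by principal transcript length, an alternative chosen after seeing the data. The log2 ratio of LSM8 over LSM1 was then 2.77 in sorted P-bodies and 1.47 in cytosol. In the knockdown 0 members were called under every alternative run, while genes called in reads (60) became 154 with 4 libraries, 3 with DESeq2, 521 with the replicate block, 1606 and 2127 without siEDC4 1 and 2, and 32 without siNC 1. With the block, genes called in editing were 26 (A-to-I) and 4 (C-to-U), and 1 gene was called for C-to-U after centring. The replicate block changed no member's call except that of LSM10 (A-to-I). LSM1 rests on 307 and 616 reads, which limits its editing estimates.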

Other observations

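LSM12, a gene of the same name family that is not a subunit of these rings, was looked at after its values were seen. Its mRNA was at 55.4 and 57.1 CPM in sorted P-bodies and 144.0 and 158.2 CPM in cytosol, a log2 fold change of -1.42 ± 0.11 (adjusted p = 7.2e-06, edgeR). That is a lower value than for any of the 10 ring genes, and the groups lie far apart.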
